A study of Mus musculus with 2 samples.

Results

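The genes examined here code for dystrophin and the proteins that hold it at the sarcolemma, the plasma membrane of muscle cells. They were chosen by name as Dmd, Utrn, Sgcd, Sgca, Sgcb, Dag1, Dtna and Sspn, and all 8 were listed in both libraries, of 25235 genes listed in either. Dmd was the only X-linked gene of the set, and the other 7 are autosomal. All 8 had at least 20 reads in each library, the minimum used for a gene to be counted, which 12736 genes passed.

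The material was nuclei of the heart of female F1 hybrids of C57BL/6J (BL6) and CAST/EiJ (CAST) mice, sequenced by single-nucleus RNA-seq. There was 1 adult heart of 9 weeks and 1 aged heart of 78 weeks, and the labels name no treatment for either. The deposited name of the aged data gives a different age in weeks, and the age of the label was used. The strain label names a BL6 mother heterozygous for a deletion of Xist, the RNA that silences the inactive X (Xi), while the genotype label names plain BL6 by CAST, and the study describes these females as wild type. The values pool only nuclei whose active X (Xa) was the BL6 X, and each nucleus had been assigned by the alleles of its X-linked reads outside the Xist locus. A read was counted where it covered a base that differs between the strains (SNP), so each gene has a number of BL6 reads, a number of CAST reads and an allelic ratio, the BL6 share of the reads, from 0 for CAST only to 1 for BL6 only. The totals were 9747535 reads in the adult heart and 5805807 in the aged heart. Since each age has a single library, the ages could not be tested against each other, and all intervals printed are 95% intervals that cover counting error only, not the spread between animals.

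Dystrophin is a long rod-shaped protein that links the actin cytoskeleton beneath the sarcolemma to dystroglycan, which spans the membrane and binds laminin outside the cell. The sarcoglycans and sarcospan form a subcomplex in the membrane beside dystroglycan, and dystrobrevin and the syntrophins bind dystrophin on the inner side. Loss of dystrophin causes Duchenne muscular dystrophy, loss of a sarcoglycan causes limb-girdle muscular dystrophy, and both can lead to cardiomyopathy. Because Dmd is X-linked, a female muscle nucleus uses the copy on its Xa, whereas the partners are used from both copies. The comparison therefore asked how a gene read from a single copy stood beside partners read from both, and how each stood in the aged heart.

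The stretches of 250 bases before the start of transcription are shown for the genes whose reads the results below turn on. They come from RefSeq on GRCm38.p6, which matched 7 of the members by symbol. Both starts that the table gives for Dmd are shown, because the reads of the locus sum over its starts, with the start at 5.61% of the locus at chrX:82948620-82948869 and the start at 93.4% of the locus at chrX:85048045-85048294, both on the plus strand. Sgcd at chr11:47379326-47379575, Sgca at chr11:94976328-94976577 and Sgcb at chr5:73647738-73647987, all on the minus strand, and Sspn at chr6:145931623-145931872 on the plus strand are shown because their reads were lower together in the aged library. The Sgcd start lies inside the listed locus, and for Sspn the first of its starts is shown. Capitals mark matches, on either strand, to motifs of muscle promoters: the E-box CANNTG, bound by myogenic factors, the M-CAT element CATTCC, the TATA box TATAAA, and the CArG box and the MEF2 site, each searched by its usual degenerate form.
Dmd, start near the 5′ end: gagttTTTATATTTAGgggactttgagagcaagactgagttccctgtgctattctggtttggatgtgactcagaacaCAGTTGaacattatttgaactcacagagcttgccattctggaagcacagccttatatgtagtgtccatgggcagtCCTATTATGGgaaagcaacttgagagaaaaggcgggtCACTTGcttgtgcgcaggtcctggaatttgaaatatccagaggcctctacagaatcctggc
Dmd, start near the 3′ end: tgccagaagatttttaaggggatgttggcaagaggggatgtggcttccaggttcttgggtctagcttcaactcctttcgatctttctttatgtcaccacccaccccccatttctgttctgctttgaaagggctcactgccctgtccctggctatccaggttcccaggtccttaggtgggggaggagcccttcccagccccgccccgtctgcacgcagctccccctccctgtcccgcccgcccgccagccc
Sgcd: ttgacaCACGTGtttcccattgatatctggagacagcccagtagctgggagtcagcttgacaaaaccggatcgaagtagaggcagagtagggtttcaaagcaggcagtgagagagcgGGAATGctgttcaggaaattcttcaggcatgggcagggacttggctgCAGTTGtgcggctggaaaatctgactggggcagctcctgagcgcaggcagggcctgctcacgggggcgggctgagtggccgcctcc
Sgca: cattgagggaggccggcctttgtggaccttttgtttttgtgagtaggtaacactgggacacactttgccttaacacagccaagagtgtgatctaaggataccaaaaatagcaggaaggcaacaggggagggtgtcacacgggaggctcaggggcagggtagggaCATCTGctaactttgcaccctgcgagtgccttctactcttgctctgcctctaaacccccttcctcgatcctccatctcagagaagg
Sgcb: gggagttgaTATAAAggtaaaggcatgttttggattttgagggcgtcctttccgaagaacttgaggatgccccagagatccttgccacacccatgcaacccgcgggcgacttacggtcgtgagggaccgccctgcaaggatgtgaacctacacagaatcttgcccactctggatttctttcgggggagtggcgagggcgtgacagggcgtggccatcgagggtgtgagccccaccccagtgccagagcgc
Sspn: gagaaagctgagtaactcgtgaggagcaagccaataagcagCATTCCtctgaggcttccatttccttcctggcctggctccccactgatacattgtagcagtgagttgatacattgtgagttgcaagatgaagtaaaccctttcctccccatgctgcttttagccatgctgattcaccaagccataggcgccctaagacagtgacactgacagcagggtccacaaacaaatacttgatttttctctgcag

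The promoter near the 5′ end of Dmd held 2 E-boxes, 1 CArG box and 1 MEF2 site that overlapped a TATA box, and its GC content was 45.2%. The promoter near the 3′ end held no match and had a GC content of 60.0%. Sgcd had 2 E-boxes and 1 M-CAT element, Sgca 1 E-box, Sgcb 1 TATA box and Sspn 1 M-CAT element. Among all 32851 mouse promoters of the same length, 66.2% held an E-box, 12.6% an M-CAT element, 12.4% a TATA box, 2.92% a MEF2 site and 1.47% a CArG box, and the median GC content was 52.4%. A match describes the letters only, and no motif was common to the 4 genes that were lower together.

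Dmd supplied more reads than the other 7 genes together. It had 63051 reads in the adult heart and 38109 in the aged heart, or 6468 (6418–6519) and 6564 (6498–6630) reads scaled to 1000000 reads of all genes (RPM). That placed it 6th among all genes by reads in the adult heart and 4th in the aged heart, with 0.647% and 0.656% of all reads. The 7 autosomal partners summed to 3195 RPM in the adult heart and 3081 RPM in the aged heart, so that Dmd had 2.02 and 2.13 times their sum. All 8 genes together held 0.966% and 0.964% of all reads.

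The loci differed widely in length. The Dmd locus, chrX:82814664-85205050 on the plus strand, spans 2390 kb and was the longest locus listed in either library. Sgcd, which codes for delta-sarcoglycan, lies on the minus strand at chr11:46971077-47988851 and was 57th in length at 1018 kb. Utrn, which codes for utrophin, the autosomal paralog of dystrophin, spans 488 kb on the minus strand of chr10:12382187-12869689. Dag1, the source of both subunits of dystroglycan, spans 59.1 kb at chr9:108204861-108263958 on the minus strand. Sspn, for sarcospan, spans 33.4 kb at chr6:145931873-145965225 on the plus strand. The genes of the alpha and beta sarcoglycans are short, with 13.6 kb for Sgca at chr11:94962777-94976327 and 15.0 kb for Sgcb at chr5:73632749-73647731, both on the minus strand. Dtna, which codes for alpha-dystrobrevin, spans 350 kb at chr18:23310020-23659719 on the plus strand. All coordinates cover the whole locus with exons and introns, and nuclear RNA retains introns, so each value sums over both.

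Levels were compared between genes per kb of locus, which takes no account of how many SNPs each locus holds. The libraries were made with a 3′ kit, so reads need not rise in proportion to locus length. Dividing by length can then favour short loci, and its part in the order of the genes was not tested. Sgca had the highest level in the adult library at 7.18 (6.73–7.65) RPM per kb. Sgcb at 2.96 (2.69–3.25), Dmd at 2.71 (2.68–2.73) and Dag1 at 2.68 (2.55–2.82) RPM per kb followed, and the intervals of these neighbours in the order overlapped. Sspn stood below them at 2.05 (1.90–2.22) RPM per kb, Dtna and Utrn had overlapping levels of 1.61 (1.57–1.65) and 1.60 (1.56–1.64), and Sgcd was lowest at 1.46 (1.43–1.48). Thus the gene with most reads had a mid-range level per kb, and the most densely read gene was the shortest.

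The order was partly different in the aged library. Sgca at 5.44 (4.94–5.98) RPM per kb was again highest and Sgcd at 1.13 (1.11–1.16) again lowest. Dmd at 2.75 (2.72–2.77) and Dag1 at 2.59 (2.43–2.77) RPM per kb overlapped, as did Sgcb at 2.09 (1.80–2.42) with Dtna at 2.06 (2.002–2.127) and with Utrn at 1.85 (1.80–1.90). Sspn was next to last at 1.41 (1.252–1.593) RPM per kb. Counted from the BL6 copy alone, Dmd had 2.70 RPM per kb in the adult heart and 2.73 in the aged heart, against 0.782 to 3.27 and 0.638 to 2.21 for the partners, of which only Sgca exceeded Dmd in the adult heart and none in the aged heart. On the CAST copy, Dmd had 0.0100 and 0.0143 RPM per kb, and the partners 0.551 to 3.91 and 0.494 to 3.23.

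**Figure D1:**
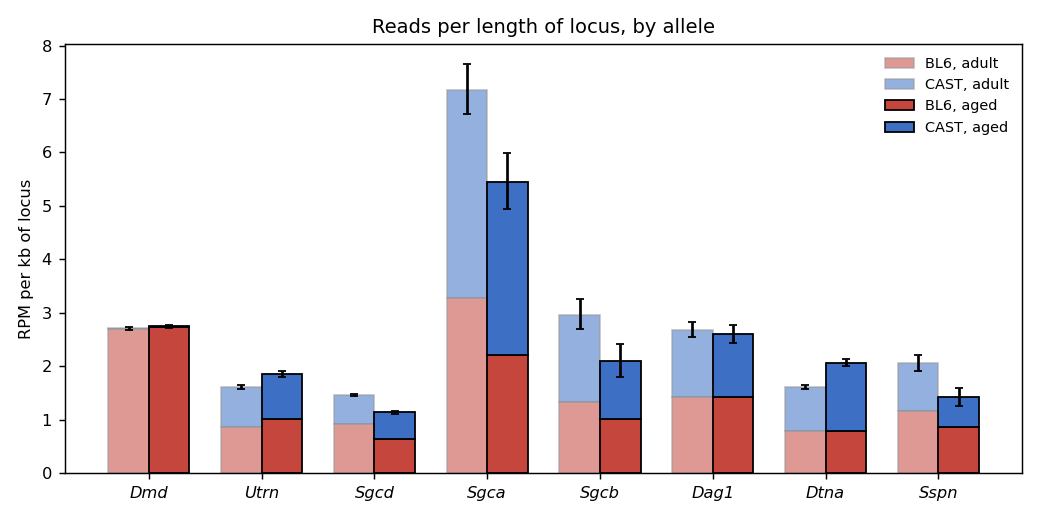
Reads per kb of locus (RPM per kb) of the 8 genes in the adult (pale bars) and aged (dark bars) library, split into BL6 (red) and CAST (blue) reads, with error bars of the exact 95% Poisson interval of the sum, 1 library per age. Dmd is almost wholly BL6, at 2.71 and 2.75 RPM per kb, and Sgca is highest at 7.18 and 5.44.

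Dmd reads came almost wholly from the BL6 copy on the Xa. In the adult library 62817 reads were BL6 and 234 CAST, and in the aged library 37910 were BL6 and 199 CAST. The allelic ratio was 0.996 (0.9958–0.9967) in the adult heart and 0.995 (0.9940–0.9955) in the aged heart. Written as the share of the CAST copy on the Xi, this was 0.371% (0.325–0.422%) and 0.522% (0.4523–0.5998%), and these intervals did not overlap. The adult allelic ratio exceeded the aged allelic ratio by 0.00151 (0.000667–0.002405, Newcombe interval). Scaled to all reads, the CAST reads were 24.0 (21.0–27.3) RPM in the adult heart and 34.3 (29.7–39.4) RPM in the aged heart, 1.43 (1.18–1.73) times as many, while the BL6 reads were 6444 and 6530 RPM, 1.01 (1.0004–1.0262) times as many. Allelic ratio intervals of the 2 ages were separate for 25 of 342 X-linked genes, or 7.31%, Dmd among them, and separation depends on depth, which was greatest for Dmd.

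**Figure D2:**
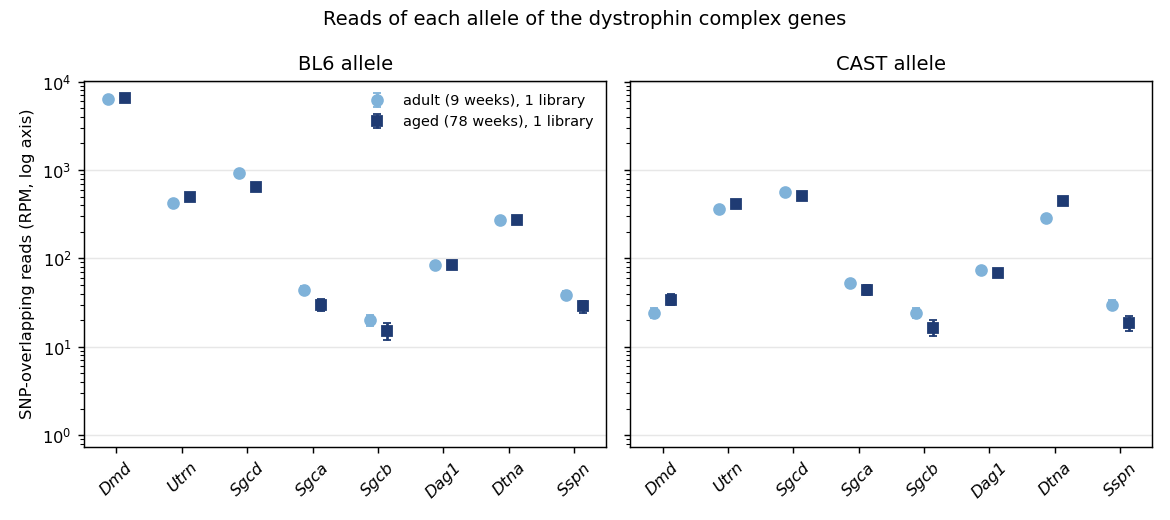
Reads of the BL6 allele (left) and the CAST allele (right) of the 8 genes, in RPM on a log axis, for the adult (circles) and aged (squares) library, with exact 95% Poisson intervals. Dmd leads the BL6 panel at 6444 and 6530 RPM and sits at 24.0 and 34.3 RPM in the CAST panel, below every partner in the adult library, with Sgcb nearest at 24.4, and above Sgcb and Sspn in the aged library.

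The nuclei were selected by the alleles of their X-linked reads, and Dmd alone made up 24.2% of those reads in the adult heart and 26.0% in the aged heart, so its high allelic ratio is in part a property of the selection. Its CAST share was low beside that of other X-linked genes. However, the selection weighed each gene by its reads and so bore most on Dmd. The comparison therefore cannot separate the allelic ratio of Dmd from the selection. The median CAST share of X-linked genes was 2.36% and 2.38%, and over all X-linked reads the CAST share was 2.94% and 3.43%, or 3.76% and 4.45% with Dmd left out. A higher allelic ratio than that of Dmd was found for 33 X-linked genes in the adult heart and 66 in the aged heart, most of them with few reads. Restricted to the 24 X-linked genes that reached 1000 reads at each age, 1 had a higher allelic ratio in the adult heart and 2 in the aged heart, and CAST shares ran from 0.336% to 46.5% and from 0.300% to 47.5%. The interval of the CAST share lay wholly below 1% in both libraries for 2 of these 24 genes, or 8.33%, Dmd and Fgf13. The CAST reads of nuclei assigned to the other Xa and of RNA from outside the nucleus were not measured separately, and their part in the CAST share of Dmd was not tested.

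The 3 X-linked genes named here were most like Dmd in allelic ratio and aged to adult ratio, by the distance over both libraries on logit allelic ratio and log2 ratio among the 24 genes. They were Cox7b, a subunit of cytochrome c oxidase, at a distance of 0.802, Fgf13, an intracellular regulator of sodium channels, at 1.06, and Gprasp1, which binds G-protein-coupled receptors, at 1.12. Cox7b had CAST shares of 0.730% and 0.771%, and Gprasp1 of 0.762% and 1.21%. Fgf13 had CAST shares of 0.336% (0.279–0.401%) and 0.515% (0.388–0.670%), which overlapped those of Dmd at both ages. Its reads differed from those of Dmd, with 3758 RPM in the adult heart and 1840 RPM in the aged heart, and it was the X-linked gene with the next most reads, exceeded by Dmd 1.72 times in the adult heart and 3.57 times in the aged heart.

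**Figure D3:**
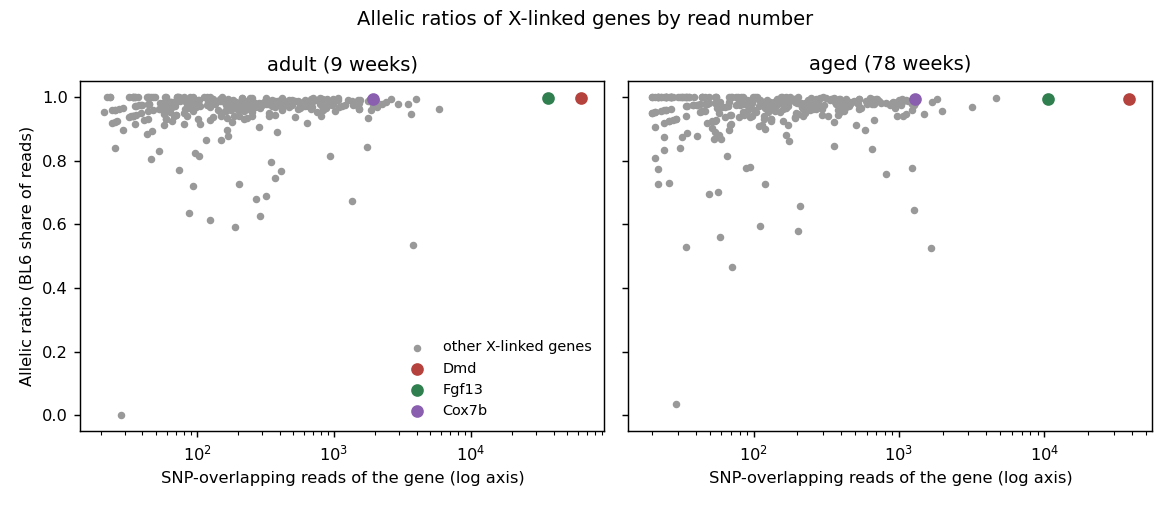
Allelic ratio of 342 X-linked genes against their reads (log axis) in the adult (left) and aged (right) library, without Xist and Tsix, with Dmd in red, Fgf13 in green and Cox7b in purple. Dmd is the point farthest right at an allelic ratio of 0.996 and 0.995, and genes of lower allelic ratio lie mostly at fewer reads.

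The loci within 2 Mb of Dmd were read mostly from BL6, as X-linked genes were in general. The median allelic ratio of X-linked genes was 0.976 at both ages, and these loci lay on both sides of it. Tab3, an adaptor of inflammatory kinase signalling, had an allelic ratio of 0.988 in the adult heart and 0.993 in the aged heart, and Gk, glycerol kinase, had 0.989 and 0.977. The uncharacterised locus 5430427O19Rik stood at 0.991 and 0.992, and Tmem47, a membrane protein of cell junctions, at 0.922 and 0.962 with 180 and 133 reads. Il1rapl1, a synaptic adhesion receptor, was at 0.996 and 0.975, the single neighbour of the 5 whose intervals were separate, beside 7.31% of X-linked genes. Of these 5 loci, 4 had lower RPM in the aged library, with aged to adult ratios of 0.684 for Tab3, 0.565 for Gk, 0.373 for 5430427O19Rik and 0.436 for Il1rapl1, while Tmem47 had 1.24 and Dmd 1.01.

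The autosomal partners were read from both copies at each age. The pooled BL6 share of all autosomal reads was 53.4% in the adult heart and 53.8% in the aged heart, so an allelic ratio slightly above 0.5 is the reference here. Summed over the 7 partners, the allelic ratio was 0.565 and 0.510, with Sgcd supplying 14461 of the 31146 adult reads. The sum does not describe each partner. Sgcd, Sgca and Dtna had lower allelic ratios in the aged library, and Utrn, Sgcb, Dag1 and Sspn higher ones. Single partners ranged from 0.449 to 0.622 in the adult heart and from 0.378 to 0.606 in the aged heart, and none approached Dmd.

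For Utrn, BL6 reads numbered 4108 and CAST reads 3497 in the adult heart and 2859 and 2374 in the aged heart. The allelic ratios of 0.540 (0.529–0.551) and 0.546 (0.533–0.560) overlapped each other and contained the pooled share. In the same pool of nuclei, Utrn reads thus came from both copies and those of its X-linked paralog almost wholly from the Xa. Pooled reads do not show whether both genes were read in the same nuclei, or whether single nuclei read both copies of Utrn. Dag1, with 816 BL6 and 729 CAST reads in the adult heart and 488 and 402 in the aged heart, likewise had allelic ratios of 0.528 (0.503–0.553) and 0.548 (0.515–0.581) that contained the pooled share.

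Sgcd leaned to BL6 in both libraries. BL6 reads numbered 8998 and CAST reads 5463 in the adult heart and 3772 and 2917 in the aged heart, giving allelic ratios of 0.622 (0.614–0.630) and 0.564 (0.552–0.576) that did not overlap. The allelic ratio difference, adult minus aged, was 0.0583 (0.0441–0.0726). BL6 reads were 923 RPM in the adult heart and 650 RPM in the aged heart, a ratio of 0.704 (0.677–0.731), and CAST reads were 560 and 502 RPM, a ratio of 0.896 (0.857–0.938). Both copies of Sgcd thus had fewer scaled reads in the aged heart, the BL6 copy more so. Of 1175 autosomal genes with at least 1000 reads in both libraries, 188 differed in allelic ratio by at least as much as Sgcd in either direction, and the median absolute difference was 0.0266.

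Dtna showed the largest allelic ratio difference of the 8 genes, toward CAST. BL6 reads numbered 2664 and CAST reads 2823 in the adult heart and 1583 and 2607 in the aged heart. The allelic ratios were 0.486 (0.472–0.499) and 0.378 (0.363–0.393), a difference of 0.108 (0.0879–0.127), and 26 of the 1175 genes with at least 1000 reads differed by at least as much in either direction. The BL6 copy had 273 RPM in both libraries, a ratio of 0.998 (0.937–1.06), whereas the CAST copy had 290 RPM in the adult heart and 449 RPM in the aged heart, a ratio of 1.55 (1.47–1.64). By RPM, the higher Dtna level of the aged library was therefore made up of CAST reads. The median gene had a ratio of 1.17 by RPM, so the equal BL6 level holds for this scaling only.

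The allelic ratio of a neighbour of Dtna was also lower in the aged library. Mapre2, which codes for a microtubule end-binding protein and lies 92.6 kb from Dtna, had allelic ratios of 0.558 (0.539–0.577) and 0.449 (0.419–0.479). Unlike Dtna, Mapre2 had fewer scaled reads in the aged library, with 275 and 188 RPM and a ratio of 0.682. Among the other 14 loci within 1 Mb of Dtna, 2700062C07Rik also had separate intervals, with 89 and 30 reads, while Galnt1 at 0.479 and 0.453 and Rprd1a at 0.535 and 0.487, both with over 600 reads in each library, did not. Near Sgcd, Rack1 alone of 10 loci had separate intervals, with 89 and 25 reads, and the deeper Adam19 had 0.420 and 0.440. Over all autosomal genes, 11.8% had separate intervals, and 31.7% of those with at least 1000 reads, as Mapre2 had. These neighbours were singled out after their values had been seen, and a shared difference of the region was not tested.

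The remaining 3 partners had few reads and wide intervals. Sgca leaned to CAST at both ages, with 432 BL6 and 516 CAST reads and an allelic ratio of 0.456 (0.424–0.488) in the adult heart and 174 and 254 reads and an allelic ratio of 0.407 (0.360–0.455) in the aged heart. For Sgcb there were 194 BL6 reads and 238 CAST reads in the adult heart and 87 and 95 in the aged heart, for allelic ratios of 0.449 (0.402–0.497) and 0.478 (0.404–0.553), the first below the pooled share and the second containing it. For Sspn there were 375 BL6 reads and 293 CAST reads in the adult heart and 166 and 108 in the aged heart, with allelic ratios of 0.561 (0.523–0.599) and 0.606 (0.545–0.664), the first containing the pooled share and the second above it. For Sgca, Sgcb and Sspn a difference between the ages was not detectable at this depth. Sgca shares its locus with Hils1, a histone gene of spermatids, which had 3 and 1 reads, and no other member overlapped a listed locus.

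Counts of the partners are given here beside the same counts over all autosomal genes, and the difference was not tested. Separate allelic ratio intervals were found for 2 of the 7 partners, Sgcd and Dtna, beside 11.8% of 12390 autosomal genes. Among genes with at least 1000 reads they were 2 of 3, Utrn being the third, beside 31.7% of 1175 genes. The interval lay wholly above the pooled share in both libraries for 1 of 7, Sgcd, beside 13.7%, and wholly below it in both for 2 of 7, Sgca and Dtna, beside 12.8%.

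**Figure D4:**
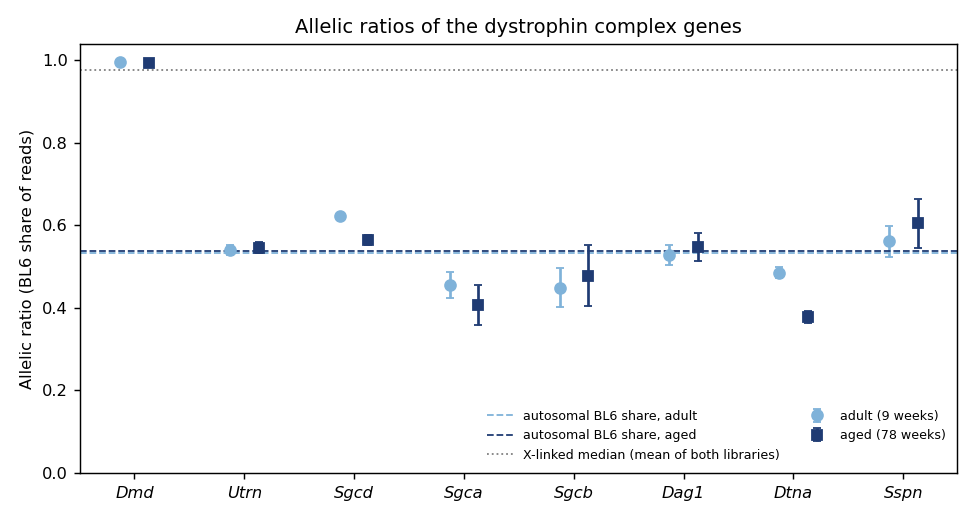
Allelic ratio (BL6 share of reads) of the 8 genes in the adult (pale circles) and aged (dark squares) library with exact 95% Clopper-Pearson intervals, dashed lines at the pooled autosomal BL6 share and a dotted line at the X-linked median. Dmd sits at 0.996 and 0.995, Sgcd at 0.622 and 0.564 and Dtna at 0.486 and 0.378, and the other partners have overlapping intervals.

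The levels of the sarcoglycans and sarcospan were lower in the aged library. Sgcd had 1484 (1459–1508) RPM in the adult heart and 1152 (1125–1180) RPM in the aged heart, a ratio of 0.777 (0.754–0.799). Sgca had 97.3 (91.2–104) and 73.7 (66.9–81.0) RPM, a ratio of 0.758 (0.675–0.851). Sgcb had 44.3 (40.2–48.7) and 31.3 (27.0–36.2) RPM, a ratio of 0.707 (0.592–0.843). These 3 sarcoglycans were joined by sarcospan, the fourth component of the same membrane subcomplex among the members. Sspn had 68.5 (63.4–73.9) and 47.2 (41.8–53.1) RPM, a ratio of 0.689 (0.596–0.794). The intervals of the 2 ages did not overlap for any of the 4 genes, and both copies had fewer scaled reads for each, with BL6 ratios of 0.676 for Sgca, 0.753 for Sgcb and 0.743 for Sspn and CAST ratios of 0.826, 0.670 and 0.619.

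Dmd and Dag1 had ratios near 1 by RPM, and Utrn and Dtna had ratios above 1. Dmd had a ratio of 1.01 (1.002–1.028), and Dag1 had 159 (151–167) RPM in the adult heart and 153 (143–164) RPM in the aged heart, a ratio of 0.967 (0.890–1.05). Utrn was higher in the aged library, with 780 (763–798) and 901 (877–926) RPM and a ratio of 1.16 (1.12–1.20), shared by the BL6 copy at 1.17 and the CAST copy at 1.14. Dtna had 563 (548–578) and 722 (700.0–744) RPM, a ratio of 1.28 (1.23–1.33).

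The median gene had a ratio of 1.17, or 0.22 on the log2 scale, while some genes with very many reads were lower in the aged library, among them Ttn, the sarcomeric spring protein titin, at 11849 and 6872 RPM. Relative to that median the ratios were 0.667 for Sgcd, 0.651 for Sgca, 0.607 for Sgcb and 0.591 for Sspn, and 1.1 for Dtna. Dmd, slightly higher at 1.01 by RPM, was lower at 0.871 relative to the median gene, so its direction depended on the scaling. Utrn likewise went from 1.16 to 0.991, and Dag1 from 0.967 to 0.830. The ratio was below the median ratio for 7 of the 8 genes, all but Dtna, and the median of the 8 ratios was 0.872.

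Counted at a fixed size, 4 of 8 members, Sgcd, Sgca, Sgcb and Sspn, were at least 20% lower in RPM in the aged library, beside 20% of 12736 genes. At least 25% higher was 1 of 8, Dtna, beside 43.7%. Relative to the median ratio the same 4 genes were at least 20% lower, beside 29.9% of all genes, and none of the 8 was at least 25% higher, beside 30.5%. Single ratios of the members were not extreme, at percentile 13.02 of all genes for Sspn, 14.1 for Sgcb, 17.2 for Sgca, 18.3 for Sgcd, 32.8 for Dag1, 37.0 for Dmd, 49.1 for Utrn and 58.9 for Dtna.

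Ratios of partners to Dmd need no scaling. For each 100 Dmd reads there were 22.9 (22.5–23.4) Sgcd reads in the adult heart and 17.55 (17.10–18.01) in the aged heart. Sgca had 1.504 (1.41–1.60) and 1.12 (1.02–1.24), Sspn 1.06 (0.980–1.14) and 0.719 (0.636–0.810), and Sgcb 0.685 (0.622–0.753) and 0.478 (0.411–0.552). Sarcoglycan and sarcospan reads were thus fewer for the same number of Dmd reads. Utrn rather had 12.1 (11.8–12.4) and 13.7 (13.3–14.1) reads, and Dtna 8.70 (8.46–8.95) and 11.0 (10.6–11.4). Dag1 had 2.45 (2.33–2.58) and 2.34 (2.18–2.50), which overlapped.

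Proportions among Sgca, Sgcb, Sgcd and Sspn themselves were given by 5 pairs of these genes. The Sgca to Sgcb ratio of reads was 2.19 (1.956–2.465) in the adult heart and 2.35 (1.97–2.81) in the aged heart, and the Sspn to Sgcb ratio was 1.55 and 1.51. For each Sgcd read there were 0.0656 and 0.0640 Sgca reads, 0.0299 and 0.0272 Sgcb reads and 0.0462 and 0.0410 Sspn reads. All 5 pairs had overlapping intervals between the ages, which does not show that the proportions were equal.

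**Figure D5:**
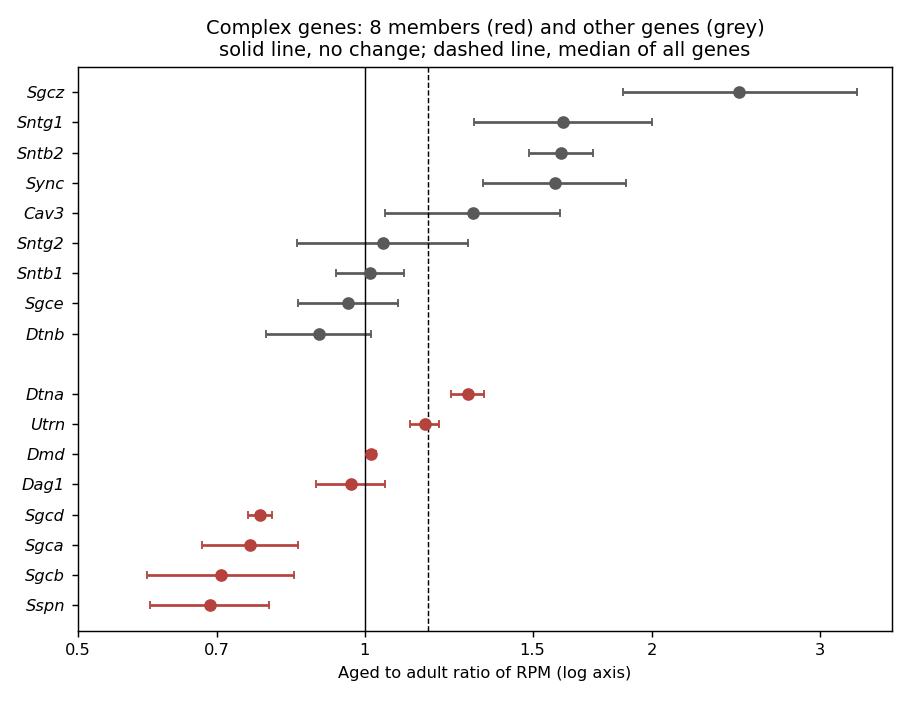
Aged to adult ratio of RPM (log axis) with exact 95% intervals for the 8 members (red) and 9 other genes of the complex (grey), a solid line at no difference and a dashed line at the median of all genes, 1.17. Sgcd, Sgca, Sgcb and Sspn lie to the left of both lines at 0.689 to 0.777, Dmd at 1.01 lies between them and Dtna at 1.28 to the right of both.

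Markers of the cell types of the heart also differed between the libraries. The 10 cardiomyocyte markers were all detected and summed to 31459 RPM in the adult heart and 30222 RPM in the aged heart, with 8 of 10 higher and 2 lower. The sums of 8 fibroblast markers were 664 and 1059 RPM, of 8 endothelial markers 866 and 1217 RPM, of 8 macrophage markers 346 and 551 RPM, and of 8 pericyte and smooth muscle markers, of which Kcnj8 was not listed, 210 and 493 RPM. The 8 lymphocyte markers summed to 97.5 and 82.5 RPM and the 8 Schwann cell and neuronal markers to 205 and 251 RPM. Skeletal muscle markers summed to 32.6 and 57.0 RPM, with Myh4, Myh1, Myh2 and Myog not listed in either library. Ckm alone supplied 30.6 and 54.3 RPM of these sums and Acta1 0.205 and 0.861 RPM, so the sums mostly describe a single gene. In pooled nuclei, fewer nuclei of a type and less RNA per nucleus cannot be told apart, and the part of these shifts in the ratios of the members was not tested. Scaled to the cardiomyocyte markers, the ratios were 0.808 for Sgcd, 0.789 for Sgca, 0.736 for Sgcb and 0.717 for Sspn, 1.06 for Dmd, 1.01 for Dag1, 1.20 for Utrn and 1.33 for Dtna, so that with this list Dag1 changed direction. Ttn was the marker with a large share of that sum and a ratio of 0.580, and without it, a choice made after seeing the data, the ratios were 0.852 for Dmd, 0.970 for Utrn and 0.812 for Dag1, all below 1, and 1.08 for Dtna.

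Of 54 other genes of the complex and its pathway, 46 had at least 20 reads in both libraries. At least 25% higher in the aged library were 22 of 46, or 47.8%, and at least 20% lower were 8, or 17.4%, beside 43.7% and 20% of all genes, with a median ratio of 1.12. Relative to the median ratio the numbers were 16 and 13, beside 30.5% and 29.9%. Allelic ratio intervals of the ages were separate for 12 of the 46, all autosomal, beside 11.8% of autosomal genes. Separation depends on depth, and the share was 31.7% among autosomal genes with at least 1000 reads. Some of the 46 were deep, such as Lama2 with 26484 adult reads, so the 12 cannot be read as an excess.

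The other genes of the complex had a median ratio of 1.30 over 11 genes, with 6 at least 25% higher, beside 43.7% of all genes. Sgce, for epsilon-sarcoglycan, had 78.0 and 74.9 RPM, a ratio of 0.961 (0.852–1.08), and its allelic ratios of 0.0171 and 0.0161 placed nearly all reads on the paternal CAST copy, as is known of this imprinted gene. Sgcz, for zeta-sarcoglycan, had 8.93 and 22.0 RPM, a ratio of 2.47 (1.87–3.28), from 87 and 128 reads, and its locus overlaps Gm40493. Neither gene was lower by 20%, unlike the sarcoglycan genes Sgca, Sgcb and Sgcd.

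The syntrophins are adaptors that tie dystrophin and dystrobrevin to signalling proteins. Sntb2 had 139 RPM in the adult heart and 223 RPM in the aged heart, a ratio of 1.61 (1.49–1.73), with allelic ratios of 0.614 and 0.532 that did not overlap. Sntg1 had 18.6 and 30.0 RPM, a ratio of 1.61 (1.303–1.998), while Sntb1 at 1.01 and Sntg2 at 1.05 had intervals that contained 1. Dtnb, the paralog of Dtna, had a ratio of 0.895 (0.788–1.016), and its interval also contained 1. Cav3, the caveolin of muscle, had 1.30 (1.05–1.60), and Sync, an intermediate filament partner of dystrobrevin, 1.58 (1.33–1.88), and both loci overlap others, Gm35649 and Rbbp4. Nos1, Drp2 and Dytn had fewer than 20 reads in a library.

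Of the 8 ligands that bind dystroglycan outside the cell, 4 were at least 25% higher, beside 43.7% of all genes. At least 20% lower was 1, beside 20%. Lama2, the laminin chain of muscle basement membrane, had the most reads, with 2717 RPM in the adult heart and 2129 RPM in the aged heart, a ratio of 0.784 (0.767–0.801), and allelic ratios of 0.399 and 0.377 that did not overlap. Hspg2, for perlecan, had 151 and 302 RPM, a ratio of 1.99 (1.86–2.14), and Lama5 72.5 and 101 RPM, a ratio of 1.40. Lama1 had a ratio of 1.55 and Slit2 0.899. Agrn at 0.894 (0.742–1.07) and Egflam at 0.980 (0.816–1.17) had intervals that contained 1.

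Among the enzymes that build the laminin-binding sugar of dystroglycan, 6 of 13 were at least 25% higher, beside 43.7% of all genes. At least 20% lower were 2, beside 20%. The lower genes were Large, which extends the sugar chain, at 1437 RPM in the adult heart and 951 RPM in the aged heart, a ratio of 0.662 (0.641–0.683), and Ispd, which makes its ribitol precursor, at 146 and 113 RPM, a ratio of 0.773 (0.704–0.849). The highest ratios among genes with at least 100 reads were those of Pomk, a kinase of the core sugar, at 1.80 (1.40–2.30) and B3galnt2, which adds a sugar to the core, at 1.75 (1.55–1.97), and Tmem5, a xylosyltransferase, was next at 0.991.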

How the data were processed

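Nuclei of 1 adult and 1 aged heart were sequenced with a 3′ single-nucleus kit. Reads were aligned by the authors with Cell Ranger 7.1.0, which the submitters' processing notes name beside Seurat 5.1.0, pooled the nuclei with a BL6 Xa and counted reads of each allele per RefSeq locus of GRCm38 with Allelome.PRO2. The deposited read counts are not normalized and list genes from 1 read on. The deposited allelic ratio is a fraction rounded to 2 decimals, and the deposited allelic score was not used. For the expression matrices the authors corrected background RNA with CellBender and took out doublets with DoubletFinder, whereas these counts come from the Cell Ranger alignments split by nucleus. Whether the pooled nuclei were limited to those that passed these filters, and whether duplicate reads of a molecule were collapsed, is not given in the sources used here. The starts in the deposited files count from 0 and are given from 1.

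Allelic ratio, RPM and their intervals were computed from the counts in Python 3.11.15 with numpy 2.4.6, pandas 2.3.3, scipy 1.17.1 and matplotlib 3.10.9. Intervals were Clopper-Pearson for shares, exact Poisson for RPM, exact conditional binomial for ratios of 2 libraries and Newcombe for differences in allelic ratio. No test was made, and each list is described beside all genes with at least 20 reads. The Clopper-Pearson, conditional binomial and Newcombe intervals were first checked on simulated data. The members, lists, size limits and marker genes were chosen with earlier results of these data known. All members were named, as were genes of the complex and ligand lists, of other lists the 3 highest and 3 lowest ratios among genes with at least 100 reads, and the 3 X-linked genes nearest to Dmd. Alternatives were other scalings, read minimums and size limits, BL6 reads alone, thinned adult reads and a correction for the pooled BL6 share. With 4190 to 14461 reads for the deeper partners Utrn, Sgcd and Dtna and 182 to 1545 for Sgca, Sgcb, Dag1 and Sspn, depth limits the latter most. Some genes of these lists are not reported here.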

Additional observations from a re-analysis of the deposited data

How the results depend on the processing

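Of 132 values recomputed under an alternative, 93 were taken as unmoved, 38 moved by more and 1 that had passed the size limit changed direction. Unmoved meant within the counting error, within rounding for the deposited allelic ratios, or for counts within 1.5 times. Some of the 93 could not have moved. The deposited ratios are the same values rounded, no listed locus overlaps Dmd, and every member had at least 182 reads, above each read minimum. The value that changed direction was the aged to adult ratio of Dtna, 1.28 over both alleles and 0.998 over BL6 reads alone. Ratios within the size limit also crossed 1, Dmd as given below, Utrn from 1.16 to 0.970 by the cardiomyocyte markers without Ttn, and Dag1 from 0.967 to 1.01 by the cardiomyocyte markers and 1.004 over BL6 reads alone. Divided by the pooled autosomal odds, the allelic ratio of Dmd was 0.9958 in the adult heart and 0.9939 in the aged heart. The ratio of Dmd, 1.01 by all reads, was 0.880 relative to the median of genes with at least 100 reads, 1.00 without the 10 genes with most reads, 1.06 by the cardiomyocyte markers and 0.852 by those markers without Ttn, a choice made after seeing the data. The number of members at least 25% higher, 1 in the report, was 0 relative to that median, 0 by the markers without Ttn, 0 at a fold of 1.5, 0 with BL6 reads alone and 2 at a fold of 1.1. The number at least 20% lower, 4 in the report, was 3 by the cardiomyocyte markers, without Sgcd at 0.808, and 0 at a fold of 1.5. Of the other complex and pathway genes, 8 were lower in the report, 13 relative to the median, 4 at a fold of 1.5 and 13 at a fold of 1.1. With adult reads thinned 100 times to the aged total, the allelic ratio difference was 0.00113 to 0.00210 for Dmd, 0.0497 to 0.0657 for Sgcd and 0.0913 to 0.126 for Dtna. No paired analysis was possible because each age has 1 library. Differences between the ages cannot be told apart from differences between 2 animals, dissections or library preparations.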

Other observations

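The structures of the costamere and sarcolemma fix the sarcomeres of cardiomyocytes to the membrane beside the dystrophin complex. Genes of these structures had a wider range of aged to adult ratios than the members. All 14 had at least 20 reads in both libraries. At least 25% higher in the aged library were 6, beside 43.7% of all genes, and at least 20% lower were 4, beside 20%. The median ratio was 1.12, beside 1.17 for all genes. Flnc, for the actin cross-linker filamin C, had 11.5 RPM in the adult heart and 56.0 RPM in the aged heart, a ratio of 4.87 (3.92–6.09). Plec, for plectin, which ties intermediate filaments to the membrane, had 60.7 and 132 RPM, a ratio of 2.18 (1.95–2.43), and Tln1, for the integrin-binding talin, had 1.65 (1.38–1.98). Its paralog Tln2 stood on the other side of 1, with 280 and 201 RPM and a ratio of 0.718 (0.669–0.769). The ankyrins, which anchor ion channels and dystrophin to the membrane, were lower, Ank3 with 793 and 423 RPM and a ratio of 0.534 (0.510–0.558) and Ank2 with 2638 and 1682 RPM and a ratio of 0.637 (0.623–0.653). Both ankyrin loci contain other listed loci. Ank2 had allelic ratios of 0.541 in the adult heart and 0.597 in the aged heart with separate intervals, toward BL6, whereas Sgcd and Dtna differed toward CAST.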
